A study of Homo sapiens with 8 samples.

Results

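The genes described are CYP1B1 and the aryl hydrocarbon receptor pathway around it: the target enzymes CYP1B1 and CYP1A1, the receptor AHR, its DNA-binding partners ARNT and ARNT2, and the feedback repressors AHRR and TIPARP. These 7 genes were chosen by name, and CYP1B1 was chosen because its level on the arrays labelled temsirolimus 24 h was already known to be very low. The other genes and the lists below were also chosen with earlier results of these data known. Their calls describe these data and are no independent support. Of the 7, 6 had a probe set annotated to that gene alone, with 1 probe set each, among 18417 genes measured in the same way. The probe set annotated to AHRR also names a neighbouring gene, so no value is given for AHRR. RNA came from cultured human ovarian carcinoma cells and was hybridised to Affymetrix Human Gene 1.0 ST arrays, and each value is a log2 intensity, so that a difference of 1 is a doubling of signal. There were 4 groups of 2 arrays: the untreated subline A2780CP20, a cisplatin-resistant derivative of A2780, cells labelled as A2780 given temsirolimus for 24 h, cells labelled as A2780 given temsirolimus for 48 h, and untreated A2780. Temsirolimus, an ester of rapamycin, blocks the growth-regulating kinase mTORC1. All cells grew in RPMI medium with serum, the drug stock was in DMSO, and the labels give neither a dose nor whether the untreated cells received DMSO. The labels do not say whether the arrays of a group came from separate cultures, and a p-value here covers no more than array-to-array spread, which may be technical.

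AHR is a ligand-activated transcription factor of the bHLH-PAS family. It rests in the cytosol with HSP90 and co-chaperones, enters the nucleus when it binds dioxins, polycyclic aromatic hydrocarbons or tryptophan derivatives such as kynurenine, pairs with ARNT, and binds a DNA element with the core GCGTG, the xenobiotic response element. CYP1A1, CYP1B1, AHRR and TIPARP are among its best known targets, and AHRR and TIPARP in turn dampen the receptor. CYP1B1 oxidises oestradiol and polycyclic hydrocarbons, is found outside the liver in hormone-responsive tissues and is abundant in many tumours.

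The arrays labelled 24 h stood apart before any gene was considered. They correlated with the other 6 arrays at r = 0.950 to 0.952 across genes, against 0.997 with each other, while r between 48 h and untreated A2780 arrays was 0.994 to 0.996. The A2780CP20 arrays correlated with each other at 0.991, lower than the 48 h arrays did with untreated A2780. These correlations are across genes, which are not independent replicates, and carry no test. Of 8 markers of ovarian carcinoma and epithelium, all lay between 5.19 and 7.61 on the other 6 arrays. On the arrays labelled 24 h, KRT18 stood at 10.55 and 10.48 and EPCAM at 7.67 and 7.80, while the other 6 of the 8 did not pass the test against untreated A2780 (KRT18 probes are uncertain because of processed pseudogenes). KRT18 and EPCAM had 2 probe sets each, and only the one with the higher mean over the 8 arrays is given. The mean level of the 8 was 6.30 to 6.34 on A2780CP20 arrays, 6.85 to 6.93 at 24 h, 6.10 to 6.15 at 48 h and 6.29 to 6.33 in untreated A2780. Of 6 genes typical of fibroblasts, 5 were lower on the arrays labelled 24 h than on those of untreated A2780 and 1 did not pass the test. In that comparison 15.3% of all genes were called lower and 14.9% higher. The differences of the 6 ran from -5.40 to 0.07, with a median of -3.63 against 0.01 for all genes. The mean level of these 6 genes was 9.95 to 10.0 on A2780CP20 arrays, 7.09 to 7.16 at 24 h, 10.2 at 48 h and 10.2 in untreated A2780. In A2780CP20, of the same 6 genes, LUM (-0.86, adjusted p = 0.0117) and DCN (-0.79, adjusted p = 0.00176) were called lower and COL1A1 (0.38, adjusted p = 0.0274) higher by limma. Of all genes, 12.0% were called lower and 6.37% higher there. The LUM and COL1A1 calls ended without A2780 untreated replicate 1 (0.0640 and 0.0780) or replicate 2 (0.0769 and 0.157), and that of COL1A1 also without A2780CP20 untreated replicate 1 (0.0677). Leukocyte and endothelial markers lay between 3.84 and 6.27 on all 8 arrays. Of the 3 leukocyte markers, PTPRC was called higher at 24 h (4.48 and 4.54, against 4.08 and 3.90 in untreated A2780, 0.52, adjusted p = 0.00447), all below the lower quartile, and 0 of 4 endothelial markers were called by limma at 24 h, with 0 at an unadjusted p under 0.05. The part that these marker differences play in the results on the 24 h and A2780CP20 arrays was not tested. The labels do not settle whether the arrays labelled 24 h hold the same cells as the others, so every value given for 24 h is that of the arrays so labelled and is not ascribed to the drug. In RNA from whole cultures, fewer cells with a transcript and less of it in each cell cannot be told apart.

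Promoter windows of the pathway genes are shown for TIPARP, a target that changed in the tests below, as CYP1B1 also did. The other window shown is that of the target used most as a reporter of the receptor, CYP1A1. The windows run from 250 bases before to 50 after an annotated start in RefSeq (GRCh38.p14), and 5 of the 7 genes were matched, with 8 windows in all. CYP1B1 and ARNT2 were not matched. Capitals mark the response element core GCGTG or its reverse complement CACGC. The TIPARP window is at chr3:156674340-156674639 on the plus strand and the CYP1A1 window at chr15:74725479-74725778 on the minus strand, both written 5′ to 3′ in the direction of transcription.
TIPARP: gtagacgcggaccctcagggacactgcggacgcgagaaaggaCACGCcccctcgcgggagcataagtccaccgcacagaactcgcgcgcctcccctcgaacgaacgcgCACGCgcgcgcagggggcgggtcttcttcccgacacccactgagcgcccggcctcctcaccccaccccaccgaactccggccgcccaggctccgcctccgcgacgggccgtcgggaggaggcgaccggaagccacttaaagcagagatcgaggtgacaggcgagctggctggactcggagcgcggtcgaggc
CYP1A1: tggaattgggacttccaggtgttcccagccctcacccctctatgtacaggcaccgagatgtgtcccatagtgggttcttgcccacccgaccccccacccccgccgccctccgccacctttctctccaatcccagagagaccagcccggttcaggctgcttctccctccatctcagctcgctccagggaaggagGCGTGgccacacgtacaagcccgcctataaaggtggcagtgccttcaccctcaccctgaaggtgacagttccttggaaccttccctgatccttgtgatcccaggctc
The first TIPARP window held 2 cores, both on the reverse strand, beginning at -208 and -142 relative to the start, and the other 2 TIPARP windows held 0. The CYP1A1 window held 1 core at -57. AHR held 1 core at 37, AHRR had 1 in its first window and 2 in its second, and ARNT had 0. A core was present in 36.5% of all 35116 windows of this length, and 2 or more cores in 12.7%, with both strands searched and overlapping matches counted. A longer form, TNGCGTG, occurred in 5.5% of windows and, among the pathway genes, in the first AHRR window. A match is a description of the letters and does not show binding.

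CYP1B1 gave a strong signal on 6 arrays and a signal near the array median on the pair labelled 24 h. It measured 12.31 and 12.41 on the A2780CP20 arrays, 6.76 and 6.84 at 24 h, 12.80 and 12.85 at 48 h, and 12.97 and 12.84 in untreated A2780. The higher 24 h array lay 6.0 below the lower untreated array, and the 6 arrays of the other 3 groups lay within 0.66 of one another. The difference of means at 24 h versus untreated was -6.11 (68.8-fold lower), and at 48 h versus 24 h it was 6.03 (65.1-fold higher). Only 3 of the 18417 genes had a larger fall at 24 h. CYP1B1 was chosen for these values, so no test is given for them. At 6.80 the 24 h mean was above the lower quartile of every array (5.03 to 5.13).

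**Figure D1:**
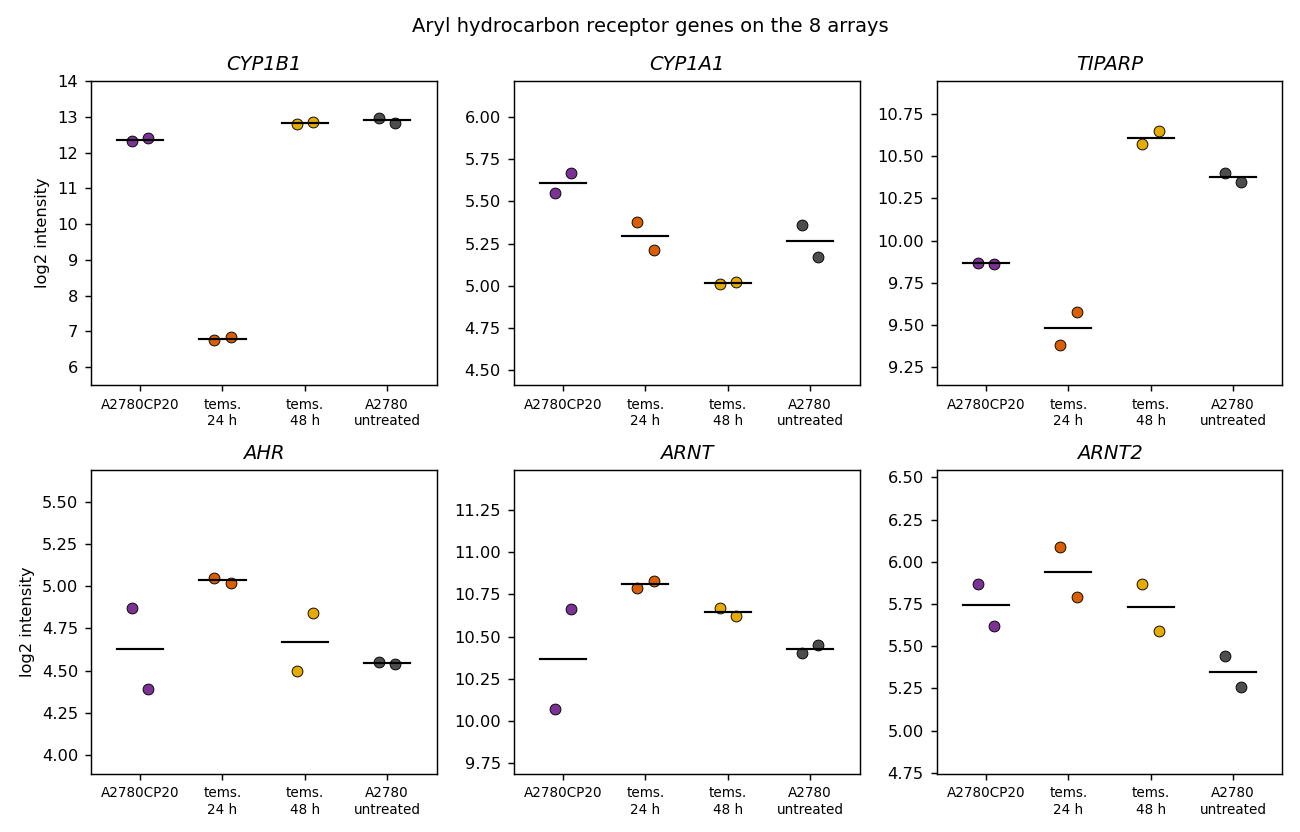
Log2 intensity (vertical axis, a separate range for each gene) of the 6 measured genes on the 8 arrays, with groups along the horizontal axis, a point for each array and a line at each group mean. CYP1B1 lay at 6.76 and 6.84 on the 24 h arrays and at 12.31 or above on all others. TIPARP was lowest on the 24 h and A2780CP20 arrays. The AHR points spread by 0.66 over all 8 arrays and all lay below the lower quartile, where differences can be understated.

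In the A2780CP20 comparison, which asks how the subline differs from its parent and does not use the 24 h arrays as a group, CYP1B1 was lower. The difference was -0.55 ± 0.09 (1.46-fold lower, adjusted p = 0.00705 by limma, with its standard error, 2 arrays a group), and the highest A2780CP20 array lay 0.43 below the lowest untreated A2780 array. The adjusted p was 0.0169 in a fit without the 24 h arrays. The call ended without A2780 untreated replicate 1 (-0.48, adjusted p = 0.0561) and in a fit of the 2 groups alone (adjusted p = 0.0525). After 48 h of drug, CYP1B1 differed from untreated cells by -0.08 ± 0.09 (adjusted p = 0.802), the groups overlapped, and the difference was smaller than the gap of 0.13 between the untreated arrays. In order of level, 48 h and untreated A2780 were therefore not separated beyond their spread, A2780CP20 came next and 24 h last.

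CYP1B1-AS1, a noncoding gene named for its place beside CYP1B1 on chromosome 2, was added after its values were seen. It does not overlap CYP1B1 in RefSeq. It measured 5.95 and 6.17 on the A2780CP20 arrays, 5.87 and 6.09 at 24 h, 6.32 and 6.44 at 48 h, and 6.65 and 6.71 in untreated A2780. Its mean differed from untreated A2780 by -0.62 in A2780CP20, -0.70 at 24 h (1.63-fold, where CYP1B1 differed 68.8-fold) and -0.30 at 48 h. Since it was picked with these values in view, they are a description with no test.

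CYP1A1, the other inducible P450 enzyme of the pathway and the usual readout of AHR activation, gave a low signal on every array. CYP1A1 measured 5.55 and 5.67 on the A2780CP20 arrays, 5.38 and 5.21 at 24 h, 5.01 and 5.02 at 48 h, and 5.36 and 5.17 in untreated A2780. The 48 h arrays lay below their arrays' lower quartiles, where signal over background is not known. None of its differences passed the test. A2780CP20 versus A2780 gave 0.35 ± 0.11 (adjusted p = 0.0577), with A2780CP20 above A2780 on all arrays and opposite in sign to CYP1B1. At 24 h the difference was 0.03 ± 0.11 (adjusted p = 0.873), and its sign turned in 3 of 11 alternatives. At 48 h versus untreated it was -0.25 ± 0.11 (adjusted p = 0.446), and at 48 h versus 24 h -0.28 ± 0.11 (adjusted p = 0.0826).

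TIPARP, which encodes a mono-ADP-ribosyltransferase that modifies AHR and limits its activity, moved in 3 comparisons. It measured 9.87 and 9.86 on the A2780CP20 arrays, 9.38 and 9.58 at 24 h, 10.57 and 10.65 at 48 h, and 10.40 and 10.35 in untreated A2780. No pair of groups overlapped, and the order of level was 48 h, untreated, A2780CP20 and 24 h. TIPARP fell in A2780CP20 (-0.51 ± 0.10, 1.42-fold lower, adjusted p = 0.0107) and at 24 h (-0.90 ± 0.10, 1.86-fold lower, adjusted p = 0.000200), and it rose at 48 h versus 24 h (1.13 ± 0.10, 2.19-fold higher, adjusted p = 4.87e-05). The first neighbours in that order, 48 h and untreated, differed by 0.24 ± 0.10, which did not pass (adjusted p = 0.439), and A2780CP20 was not tested against 24 h. The 24 h changes kept their calls under all 12 alternatives tried. The A2780CP20 call had an adjusted p of 0.0170 without the 24 h arrays and ended without A2780 untreated replicate 1 (-0.49, adjusted p = 0.0685) or replicate 2 (-0.54, adjusted p = 0.0601) and with the 2 groups alone (adjusted p = 0.0523). CYP1B1 and TIPARP were both lower in A2780CP20 and on the 24 h arrays, but these comparisons share the untreated A2780 arrays, and the sizes differed: 1.46-fold and 1.42-fold in A2780CP20, against 68.8-fold and 1.86-fold at 24 h.

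The receptor itself lay below the lower quartile on all 8 arrays. AHR measured 4.87 and 4.39 on the A2780CP20 arrays, 5.05 and 5.02 at 24 h, 4.50 and 4.84 at 48 h, and 4.55 and 4.54 in untreated A2780. The 24 h arrays were the highest and did not overlap untreated A2780, whereas the A2780CP20 and 48 h pairs each spread across the untreated values. The 24 h difference was 0.49 ± 0.17 (adjusted p = 0.0546), which did not pass, and it passed with median centring (adjusted p = 0.0434) and in a fit of only these 2 groups (0.00506). The other AHR differences were 0.09 ± 0.17 in A2780CP20 (adjusted p = 0.760), 0.13 ± 0.17 at 48 h (0.828) and -0.37 ± 0.17 at 48 h versus 24 h (0.134). At such low signal, real differences in AHR can be understated and a lack of AHR transcript cannot be told from a weak probe set.

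ARNT, the constitutive partner of AHR and of the hypoxia-inducible factors, gave a strong signal on all arrays. It measured 10.07 and 10.66 on the A2780CP20 arrays, 10.79 and 10.83 at 24 h, 10.67 and 10.62 at 48 h, and 10.40 and 10.45 in untreated A2780. The A2780CP20 pair differed by 0.59 and spanned the untreated arrays. At 24 h the difference was 0.39 ± 0.17 (adjusted p = 0.124) and at 48 h 0.22 ± 0.17 (adjusted p = 0.677), neither of which passed. The 24 h difference passed in a fit of only these 2 groups (adjusted p = 0.0122). In A2780CP20 it was -0.06 ± 0.17 (adjusted p = 0.836). Without A2780CP20 untreated replicate 2 this became -0.36 (adjusted p = 0.0239), and without replicate 1 it was 0.24 (adjusted p = 0.116).

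ARNT2, a close relative of ARNT best known in neurons, measured 5.87 and 5.62 on the A2780CP20 arrays, 6.09 and 5.79 at 24 h, 5.87 and 5.59 at 48 h, and 5.44 and 5.26 in untreated A2780. The untreated arrays were the lowest, and the other 3 groups overlapped one another. ARNT2 was among the 25% of genes with the lowest mean signal, so the alternative that drops them did not test it. ARNT2 rose at 24 h (0.59 ± 0.15, 1.51-fold higher, adjusted p = 0.0168). This call ended without A2780 untreated replicate 2 (0.50, adjusted p = 0.110) and without A2780 temsirolimus 24 h replicate 1 (0.44, adjusted p = 0.125). In A2780CP20 the difference was 0.40 ± 0.15 (adjusted p = 0.104, or 0.0213 with the replicate number as a block) and at 48 h 0.38 ± 0.15 (adjusted p = 0.411).

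Counted together, 2 of the 6 measured genes were called in A2780CP20 versus A2780, both lower, where 18.4% of all genes tested were called and 12.0% were lower. At 24 h, 2 of the 5 genes other than CYP1B1 were called, TIPARP lower and ARNT2 higher, where 30.1% of all genes were called. At 48 h versus 24 h, 1 of these 5 was called, where 31.0% of all genes were. Between 48 h and untreated cells, limma called 0 of 6, where 0.179% of all genes were called. In that comparison 3 of the 6 (CYP1A1, ARNT2 and TIPARP) had an unadjusted p under 0.05. The share of all genes at that looser threshold was not counted, so these 3 are not set against the 0.179%. With so few genes, no share is read as differing from that of all genes.

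**Figure D2:**
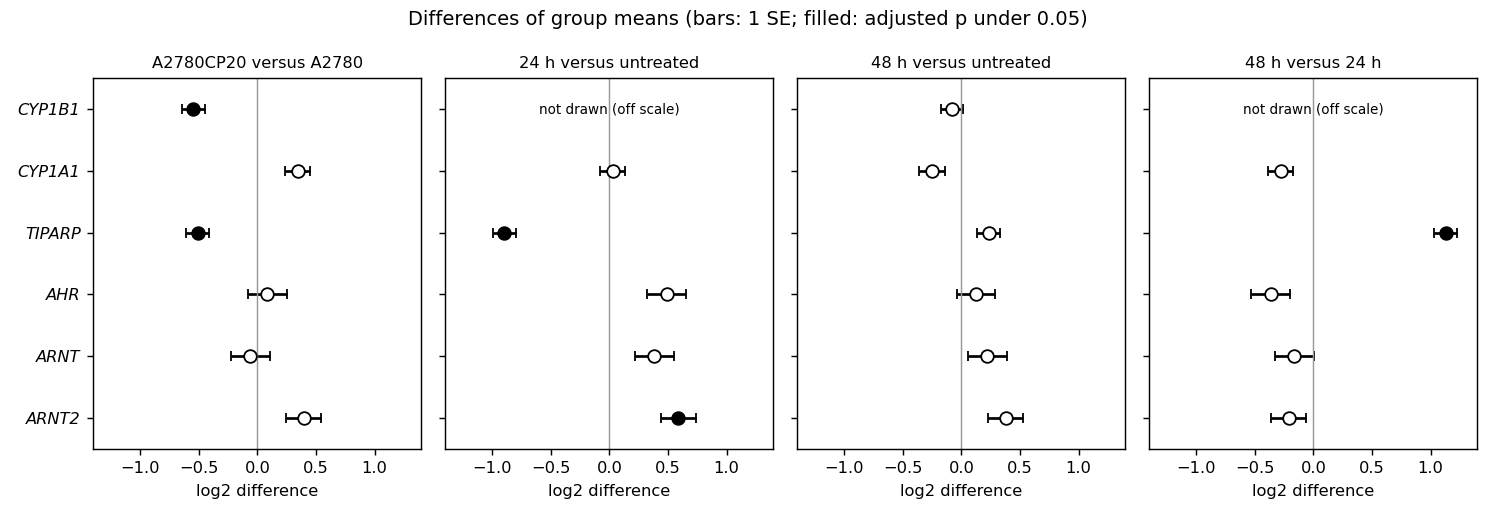
Differences of group means on the log2 scale (horizontal axis) for the 6 genes (vertical axis) in the 4 comparisons, first-named group minus second, with bars of 1 standard error and filled points where the adjusted p was under 0.05. TIPARP was filled in 3 comparisons and none of the 6 genes at 48 h versus untreated, and CYP1B1 is not drawn where it exceeds the scale.

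Of 5 measured genes of the receptor complex, 1 rose and 1 fell at 24 h (median 0.22, against 0.01 for all genes, of which 14.9% rose and 15.3% fell). HSP90AA1, the inducible HSP90 that holds AHR ready for ligand, measured 13.31 on both 24 h arrays, against 12.85 and 12.92 in untreated A2780, a rise of 0.43 ± 0.09 (adjusted p = 0.00552). Its probes are uncertain because of processed pseudogenes. CUL4B, a ubiquitin ligase scaffold that AHR can recruit, measured 8.84 and 8.85 at 24 h, against 9.44 and 9.36 in untreated A2780 (-0.56 ± 0.09, adjusted p = 0.00147). CUL4B also fell in A2780CP20 (8.72 and 8.73, against 9.44 and 9.36, -0.68 ± 0.09, adjusted p = 0.00282), the only one of the 5 called there (6.37% of all genes rose and 12.0% fell).

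Among 8 coactivators of AHR and ARNT, 3 fell and 0 rose at 24 h, where 15.3% of all genes fell and 14.9% rose, with a median of -0.55, against 0.01 for all genes. NCOA2, a p160 coactivator, measured 8.07 and 7.98 at 24 h, against 9.06 on both untreated arrays (-1.04 ± 0.15, 2.05-fold lower, adjusted p = 0.00107). CALCOCO1, which binds p160 coactivators, measured 7.75 and 7.77 at 24 h, against 8.64 and 8.60 in untreated A2780 (-0.86 ± 0.10, adjusted p = 0.000328). EP300, a histone acetyltransferase, was at -0.62 ± 0.19 (adjusted p = 0.0368), a call that ended without any 1 of the 4 arrays compared (adjusted p between 0.114 and 0.136). In A2780CP20, 2 of the 8 fell and 1 rose, where 12.0% of all genes fell and 6.37% rose. There CALCOCO1 fell by 0.79 and TRIP11, a coactivator that binds ARNT, by 0.84 on the log2 scale (adjusted p = 0.00287 and 0.00325), while the chromatin remodeller gene SMARCA4 was at 0.42 ± 0.09 (adjusted p = 0.0144, and 0.0877 without A2780 untreated replicate 1, 0.0648 without replicate 2).

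Of 12 relatives of AHR in the bHLH-PAS family, 3 rose and 0 fell on the 24 h arrays, where 14.9% of all genes rose and 15.3% fell, with a median of 0.09 against 0.01 for all genes. SIM1, a transcription factor of hypothalamic and kidney development that pairs with ARNT, measured 10.34 and 10.37 at 24 h, against 5.60 and 5.5 in untreated A2780 (4.81 ± 0.09, 27.95-fold higher, adjusted p = 9.67e-09). BMAL2, a clock protein, measured 7.97 and 7.61 at 24 h, against 4.77 and 5.03 in untreated A2780 (2.89 ± 0.15, 7.41-fold higher, adjusted p = 1.71e-06), where the untreated values lay below the lower quartile, so the rise can be understated. HIF1A, the oxygen-regulated partner of ARNT, measured 11.07 and 11.01 at 24 h, against 10.11 and 10.22 in untreated A2780 (0.88 ± 0.17, 1.83-fold higher, adjusted p = 0.00501). In A2780CP20, where 18.4% of all genes were called, SIM1 fell (-0.45 ± 0.09, adjusted p = 0.0133) and NPAS1 rose (0.61 ± 0.14, adjusted p = 0.0191), both calls ending without either untreated A2780 array (adjusted p between 0.0558 and 0.0986).

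Of 13 other reported AHR targets measured, 3 fell and 1 rose at 24 h, a share near that of all genes, of which 30.1% were called. Their median was -0.06 against 0.01 for all genes. NQO1, a quinone reductase also induced through NRF2, measured 10.06 and 10.13 at 24 h, against 11.27 and 11.23 in untreated A2780 (-1.16 ± 0.09, 2.23-fold lower, adjusted p = 1.80e-05). HES1, a repressor better known as a Notch target, measured 7.5 and 7.57 at 24 h, against 9.14 and 9.19 in untreated A2780 (-1.63 ± 0.10, 3.10-fold lower, adjusted p = 4.97e-06). PTGS2, the inducible cyclooxygenase, was at -1.44 ± 0.17 (adjusted p = 0.000320), and STC2, a secreted glycoprotein, was higher by 0.58 ± 0.13 (adjusted p = 0.0100), a call that ended without A2780 untreated replicate 2 (0.0713) or A2780 temsirolimus 24 h replicate 2 (0.38, adjusted p = 0.0699). In A2780CP20, where 18.4% of all genes were called, the 1 called gene of 13 was SLC7A5, the amino acid transporter that carries tryptophan and kynurenine, which measured 11.89 and 12.04, against 10.78 and 10.89 in untreated A2780 (1.13 ± 0.10, adjusted p = 0.00137).

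Enzymes that make kynurenine from tryptophan, a source of AHR ligands, included 2 with large differences. IDO1, which opens the indole ring of tryptophan, measured 7.94 and 7.82 in A2780CP20, 4.55 and 4.44 at 24 h, 8.06 and 8.15 at 48 h, and 8.53 and 8.39 in untreated A2780. Its difference at 24 h was -3.97 ± 0.10 (15.6-fold lower, adjusted p = 2.94e-08). Its paralog IDO2 measured 7.29 and 7.82 in A2780CP20, 3.93 and 4.52 at 24 h, 8.59 and 9.03 at 48 h, and 8.57 and 8.75 in untreated A2780. At 24 h IDO2 differed by -4.44 ± 0.24 (21.6-fold lower, adjusted p = 2.34e-06). Both lay below the lower quartile at 24 h, so these falls can be understated. TDO2, which catalyses the same reaction, rose by 0.74 ± 0.09 (adjusted p = 0.000338) to 5.21 and 5.13 at 24 h, against 4.42 and 4.44 in untreated A2780. The untreated TDO2 values lay below the lower quartile, where signal over background is not known. The 24 h values of TDO2 lay just above the lower quartiles of those arrays (5.12 and 5.11). The full list takes in enzymes that use up kynurenine as well as those that make it. Of its 9 measured enzymes, 5 fell and 2 rose at 24 h, where 15.3% of all genes fell and 14.9% rose. Their median was -0.41 against 0.01 for all genes.

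IDO1 and IDO2 were also lower in A2780CP20, at -0.58 ± 0.10 (adjusted p = 0.00692) and -1.11 ± 0.24 (adjusted p = 0.0161). With AFMID, the next enzyme of the route (-0.43 ± 0.11, adjusted p = 0.0295), they made 3 lower and 0 higher of the 9 enzymes in the full list. Of all genes, 12.0% were lower and 6.37% higher. The median of the 9 was -0.03 against 0.03 for all genes. Calls ended when 1 array was left out, while each difference kept its sign. Without A2780 untreated replicate 1, IDO1 was at -0.51 (adjusted p = 0.0554), IDO2 at -1.20 (0.0657) and AFMID at -0.34 (0.159). Without A2780 untreated replicate 2, IDO2 was at -1.02 (adjusted p = 0.106) and AFMID at -0.52 (0.0680). Without A2780CP20 untreated replicate 1, IDO2 was at -0.84 (adjusted p = 0.0793), and without replicate 2 AFMID was at -0.32 (0.0617). In the fit without the 24 h arrays AFMID had an adjusted p of 0.0518. After 48 h limma called 0 of 9 against untreated cells (1 at an unadjusted p under 0.05), and the nearest was IDO1 at -0.36 ± 0.10 (adjusted p = 0.262).

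Of 9 redox partners of P450 enzymes and enzymes of oestrogen metabolism, 1 fell and 0 rose at 24 h (median -0.14, against 0.01 for all genes), which is no more than the 15.3% of all genes that fell. This was CYB5A, cytochrome b5, which passes electrons to P450 enzymes. It measured 4.88 and 5.03 at 24 h, against 8.37 and 8.64 in untreated A2780 (-3.55 ± 0.12, 11.7-fold lower, adjusted p = 1.65e-07), and 8.68 and 8.80 at 48 h. The 24 h values lay below the lower quartile, so the fall can be understated. In A2780CP20 limma called 0 of 9 (2 at an unadjusted p under 0.05), and HSD17B1, which makes oestradiol from oestrone, was nearest at 0.29 ± 0.11 (adjusted p = 0.0990).

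**Figure D3:**
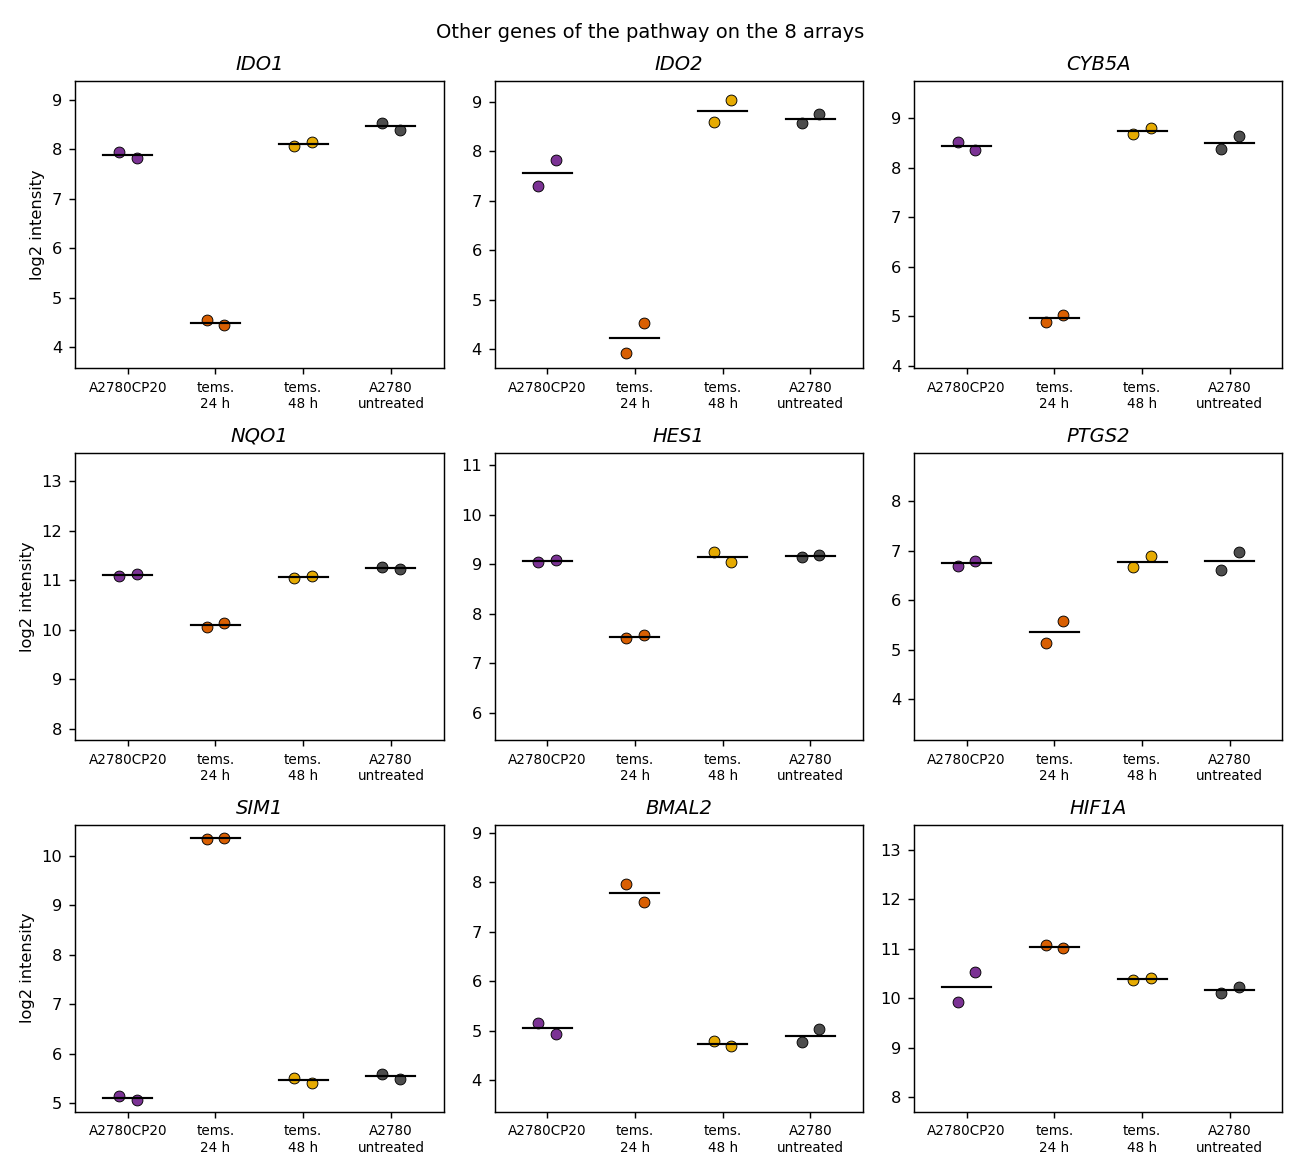
Log2 intensity (vertical axis, with the same span of 5.8 units centred separately for each gene) on the 8 arrays by group (horizontal axis), a point for each array and a line at each group mean. IDO1, IDO2 and CYB5A lay at or below 5.03 on the 24 h arrays and at 7.29 or above elsewhere, NQO1, HES1 and PTGS2 were lowest at 24 h, and SIM1, BMAL2 and HIF1A were highest at 24 h.

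Of 46 other cytochrome P450 genes, 1 rose and 3 fell at 24 h, a smaller share than the 30.1% called of all genes, and their differences ran from -0.82 to 0.47, with a median of -0.04 against 0.01 for all genes. The lowest was CYP2D7, at -0.82 ± 0.10 (adjusted p = 0.000429), whose probes are uncertain because of its close copy CYP2D6. CYP20A1 (-0.47 ± 0.12, adjusted p = 0.0153) lost its call without A2780 untreated replicate 2 (0.105) or either 24 h array (0.0887 and 0.0621). CYP4V2 (0.47, adjusted p = 0.0162) and CYP27C1 (-0.45, adjusted p = 0.0320) were the other calls, and both ended without A2780 untreated replicate 2 (0.117 and 0.199) or A2780 temsirolimus 24 h replicate 2 (0.115 and 0.110), and CYP27C1 also without 24 h replicate 1 (0.132). In A2780CP20, where 18.4% of all genes were called, 1 rose (CYP27B1, 0.49) and 2 fell (CYP20A1, -0.51, and CYP2U1, -0.48), and all 3 calls ended without A2780 untreated replicate 2 (adjusted p of 0.104, 0.126 and 0.109), those of CYP27B1 and CYP2U1 also without untreated replicate 1 (0.0861 and 0.160) or A2780CP20 untreated replicate 1 (0.0586 and 0.0990), and that of CYP2U1 without A2780CP20 untreated replicate 2 (0.0535). CYP1A2, the relative of CYP1A1 best known in liver, measured 6.61 and 6.60 in A2780CP20, 6.35 and 6.63 at 24 h, 6.64 and 6.21 at 48 h, and 6.57 and 6.54 in untreated A2780, with no difference called.

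None of the genes in the 6 lists above, nor of the other P450 genes, was called by limma at 48 h versus untreated, where 0.163% of all genes rose and 0.0163% fell. At an unadjusted p under 0.05 there were 0 of 5 receptor complex genes, 2 of 12 bHLH-PAS genes, 1 of 8 coactivators, 2 of 13 targets, 1 of 9 tryptophan enzymes, 0 of 9 P450 partners and 6 of 46 other P450 genes. The share of all genes at that looser threshold was not counted, so these counts are not set against the shares called. The 48 h versus 24 h comparison shares the 24 h arrays with the earlier one, and its values are given for some of the genes named above. SIM1 was at -4.89 ± 0.09, IDO2 at 4.59 ± 0.24, IDO1 at 3.61 ± 0.10, CYB5A at 3.79 ± 0.12, HES1 at 1.62 ± 0.10, NCOA2 at 1.07 ± 0.15 and NQO1 at 0.98 ± 0.09, all called, in a comparison where 15.2% of all genes were higher and 15.7% lower. BMAL2 (-3.05 ± 0.15), HIF1A (-0.66 ± 0.17) and EP300 (0.63 ± 0.19) were called as well. The HIF1A and EP300 calls ended whichever of the compared arrays was left out.

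The genes whose pattern over the 8 arrays was most like that of CYP1B1 were found by the root mean square difference of values centred on each gene's own mean. The nearest was VCAN, a matrix proteoglycan, at a difference of 0.151 log2 units. It was followed by GPRIN3 at 0.183, HAPLN1, which links hyaluronan to proteoglycans, at 0.221, CBLN2, a secreted synapse organiser, at 0.248, and SNAI2, a repressor of epithelial genes, at 0.297. VCAN averaged 10.96 in A2780CP20, 5.07 at 24 h, 11.41 at 48 h and 11.48 in untreated A2780. Their 24 h means differed from untreated A2780 by -5.51 (CBLN2) to -6.41 (VCAN). A low value at 24 h was fixed by choosing genes near CYP1B1 and is no finding. SNAI2 differed from the others in that A2780CP20 (11.54) and untreated A2780 (11.59) were close. Its 48 h mean (12.2) also lay further from its untreated mean than in any of the other genes. None of the 5 belongs to the AHR lists. For AHR the nearest were FAM138D (0.042), a noncoding gene with near-identical copies and therefore uncertain, SLC24A4 (0.085) and BFSP1 (0.086), and AHR itself was below the lower quartile throughout.

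**Figure D4:**
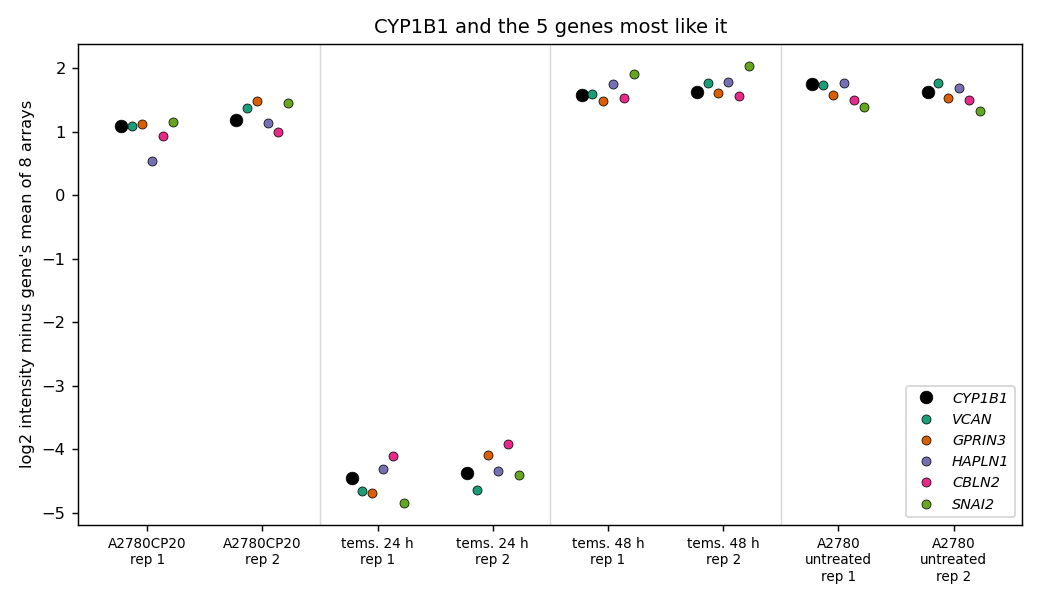
Log2 intensity minus the gene's mean of 8 arrays (vertical axis) on each array (horizontal axis) for CYP1B1 and the 5 genes nearest to it, a point for each gene and array. All 6 genes are lowest on the 24 h arrays, and the points of CYP1B1 and VCAN differ by a root mean square of 0.151.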

How the data were processed

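The authors deposited 1 table with 1 column of values for each of 8 arrays and 33297 probe sets. The values are taken as log2 intensities from their range and near-equal quartiles, as no label states the log base. The deposited log2 values are rounded to 2 decimals and the tool named for them, per the submitters' processing notes, is Partek, with no role stated. How the authors corrected background, normalized arrays and summarised probes is not given in the sources used. Groups and replicate numbers come from the sample titles.

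Probe sets were named through the platform annotation, with symbols updated by gene number from RefSeq (18389 of 18417 genes matched). Of the probe sets, 19460 had 1 symbol. Where a gene had several, the probe set with the highest mean over the 8 arrays was used (769 genes). Promoter windows come from RefSeq, GRCh38.p14. List genes without a probe set of their own are not analysed here.

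All genes were fitted with limma version 3.58.1 in R version 4.3.3, with 1 coefficient per group over all 8 arrays, empirical Bayes moderation, two-sided p-values adjusted by Benjamini-Hochberg across 18417 genes. Genes with an adjusted p under 0.05 were called. Errors are standard errors of this fit. The number of arrays limits precision. The fit was also run on simulated data with known changes, where many of the smallest changes were missed. A small difference that was not called here can therefore be real. Correlations of the deviations of same-numbered arrays were 0.117 to 0.181 among A2780CP20, 48 h and untreated A2780, and 0.0020 to 0.0387 with the 24 h arrays. With 2 numbers a group and no label tying them to a batch, they were not taken as pairs. Alternatives were quantile normalization, median centring, dropping the 25% of genes with the lowest signal, averaging probe sets, only the groups compared, a replicate block, an intensity trend or robust prior, a fit without the 24 h arrays and leaving out each array.

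The genes and lists were chosen with earlier results of these data known. From each list, genes named were taken from up to 4 called genes with the largest change, or up to 2 with the smallest p. Not all of them are named. CYP1B1-AS1 was chosen after its values were seen, and CYP1A2 was given beside its relatives.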

Additional observations from a re-analysis of the deposited data

Results flagged for a closer look

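TIPARP differed between the arrays labelled 48 h and 24 h: the difference at 48 h minus that at 24 h, both against untreated A2780, was 1.13 on the log2 scale and was itself tested (48 h versus 24 h, limma adjusted p = 4.87e-05). Both 48 h arrays (10.57 and 10.65) lay above both 24 h arrays (9.38 and 9.58). On the 24 h arrays 5 of 6 fibroblast markers were lower than in untreated A2780 as well, where 15.3% of all genes were lower. Those arrays also stood apart from all others. The part of either in the TIPARP result was not tested.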

How the results depend on the processing

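The count of pathway genes called in A2780CP20 versus A2780 was 2 of 6. It was 0 with only the groups compared and lay between 0 and 3 when 1 array was left out. At 24 h it was 2 of 5, against 3 with median centring, 4 with only the groups compared and 1 without the dimmest 25% of genes, where only 2 of the 5 were left to test, and between 1 and 2 when 1 array was left out. At 48 h versus untreated it was 0, and at 48 h versus 24 h it was 1, under every alternative run. With a replicate block the counts were 3 for A2780CP20, 2 at 24 h, 0 at 48 h versus untreated and 1 at 48 h versus 24 h. Small differences that were not called turned sign. With quantile normalization CYP1A1 at 24 h became -0.008 and ARNT in A2780CP20 0.006. With 1 array left out, CYP1A1 at 24 h ranged from -0.065 to 0.125 (-0.055 without 24 h replicate 1), AHR in A2780CP20 from -0.155 to 0.325, AHR at 48 h from -0.045 to 0.295, ARNT in A2780CP20 from -0.355 to 0.235 and PTGES3, an HSP90 co-chaperone, at 48 h from -0.005 to 0.185. The cause was not tested. Over all genes, the 3388 calls in A2780CP20 ranged from 974 to 5543, the 5551 at 24 h from 3621 to 6413, the 33 at 48 h from 4 to 68 and the 5702 at 48 h versus 24 h from 3715 to 7067. AHR on all arrays and CYP1A1 at 48 h lay below the lower quartile of their arrays, which limits what their differences show. ARNT2 was also among the 25% of genes with the lowest mean signal.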
